A study of Mus musculus with 2 samples.

Results

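The Myb and Myc family genes described here are 7 transcription factor genes, Myb, Mybl1, Mybl2, Myc, Mycn, Mycl and Max. They were taken by their names from the 32285 genes listed in the count tables, and each name matched 1 row. Their mRNA levels were measured in the epithelial cells of developing hair follicles (HFs) and set beside the level of proliferation genes in the same cells. No member belongs to the marker lists that sorted the cells into classes or to the lists that measured proliferation. The marker lists were, however, chosen with earlier results of these data known.

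The cells came from the back skin of mice at postnatal day 1 (P1) and were profiled by droplet-based single-cell RNA sequencing, which counts captured mRNA molecules by their unique molecular identifiers (UMIs). One library is labelled PADI4 WT and the other PADI4 cKO, and both are given as batch 1. The cKO carries Padi4 fl/fl alleles, a K14-Cre transgene and a tdTomato reporter, so that Cre under the keratin 14 promoter, active in basal epithelial cells, both deletes Padi4 and marks the cell. Both libraries hold tdTomato-positive, DAPI-negative cells sorted from the dermal fraction after the epidermis had been removed. The labels name the control only as WT, with a shared protocol that mentions K14-Cre Padi4 fl/fl mice for both, and they give neither the number nor the sex of the animals. The study describes its WT cells as carrying K14-Cre and tdTomato too, so Cre and the reporter were shared by both libraries. Since each genotype has a single library, differences could not be tested over animals. All intervals are 95% intervals for counting error alone (exact Poisson for levels, exact binomial for shares, exact conditional binomial for log2 ratios), and levels are given as CPM, the UMIs of a gene in the cells of a class scaled to the same total for each class and library.

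After filtering, the PADI4 WT library held 8069 cells and the one labelled PADI4 cKO 7394, with medians of 14670 and 16208 UMIs, and 14 barcodes occurred in both. Padi4 had 97 UMIs in the former and 89 in the latter, a log2 ratio of −0.15 (−0.58 to 0.28), so its counts did not set the libraries apart and the second library is named by its label. The libraries also differed in sex-linked RNA, since 59.8% of the PADI4 WT epithelial cells had UMIs of Y-linked genes without Xist, against 0% in the other library, where 99.7% had Xist alone. Free RNA made up at most 7.83% and 6.75% of the UMIs. Of the 7971 and 7326 epithelial cells, 41.9% and 43.3% were gated by their markers into 9 classes, named inner root sheath (IRS)-like, germinative layer (GL)-like, lower proximal cup (LPC)-like, medulla (Med)-like, interfollicular epidermis (IFE)-like, upper HF (uHF)-like, outer root sheath (ORS)-like, cortex (Cx)-like and sebaceous gland (SG)-like. The smallest was Cx-like, with 71 and 42 cells, and the largest ORS-like, with 1055 and 1078. Each class had at least 4 genes of its own list raised, and its 10 leading genes held more markers of its own list than of any other. The GL-like cells were also led by Dcn, a proteoglycan gene of connective tissue, while the summed fibroblast list lay between 0 and 12.7 CPM over all classes. The melanocyte list reached 171 CPM in the ORS-like cells, nearly all of it Mitf, while Sox10, which defines the lineage, had 1 UMI in each library. Other genes of that list were highest in the Med-like cells of both libraries. These were Dct (44.2 CPM in PADI4 WT and 51.0 CPM in the other library), Mlana (2.89 and 7.36 CPM) and Tyrp1 (0.413 and 1.58 CPM). Pmel was highest in the Cx-like cells of PADI4 WT (5.60 CPM) and the Med-like cells of the other library (6.31 CPM). The source of this RNA was not tested.

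The Myb proteins share a DNA-binding domain and recognize the same short motif. Mybl2 encodes B-Myb, which joins the MuvB complex and activates genes of late S phase and mitosis, and is itself a target of E2F factors. Myb encodes c-Myb, a factor of immature cells best known from blood progenitors, and Mybl1 encodes A-Myb, best known from the male germ line. The proteins of Myc, Mycn and Mycl bind the E-box CACGTG as dimers with Max and activate genes of growth and ribosome production, while the Mxd proteins and Mnt compete for Max and repress such genes. In skin, forced expression of Myc in basal cells is known to favor sebaceous differentiation, and Mycn is a known response gene of Hedgehog and Wnt signals in several progenitor cells.

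The promoters are shown because E2F-type letters and the E-box stand near the start of several members, and E2F factors and Max partners are described below. Of the 7 genes, 5 were found in a table of RefSeq promoters (GRCm38.p6) running from 250 bases before to 50 bases after each start. The following windows of 30 bases are written 5′ to 3′ on the strand of the gene, with the matched letters in capitals.
Mybl2: gccgacgcacttGGCGGGAgataggaaagt
Myb: ggcgccagatttGGCGGGAgggggagtgtc
Mycl: agcggagagaggGGCGGGAgggggaggggc
Mycn: gcgcgaaaggcTTTGGCGCctcccctgatt
Max: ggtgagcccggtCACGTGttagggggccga
The Mybl2 window lies at chr2:163054610-163054639 on the plus strand, with its match at position −13 from the start, and the Mycl window at chr4:122995836-122995865 on the plus strand, at position −83. On the minus strand lie the windows of Myb at chr10:21160976-21161005 (match at −9), Mycn at chr12:12941986-12942015 (match at −168) and Max at chr12:76962234-76962263 (match at −3). Both strands were searched for 4 motifs that were chosen after the sequences had been seen. The E2F-type letters GGCGGGA occurred in 11.3% of all 32851 promoters and in those of Mybl2, Myb and Mycl. The related TTTGGCGC occurred in 0.514% of all promoters and at 2 positions in that of Mycn, which also held TTTGAA, the letters of a cell cycle homology region found in 17.9%, on its opposite strand. The E-box CACGTG occurred in 7.15% of all promoters and, of these genes, in Max. Such matches describe letters and not bound sites.

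Proliferation differed widely between the classes. Mki67, a nuclear protein gene of cycling cells, stood at 796 and 725 CPM in the IRS-like cells and 796 and 732 CPM in the GL-like cells, PADI4 WT first and the library labelled PADI4 cKO second, as in all pairs below. It was 515 and 346 CPM in the LPC-like, 243 and 95.2 CPM in the ORS-like and 113 and 67.0 CPM in the SG-like cells. The summed list of S phase genes ran from 4457 and 5003 CPM in the GL-like cells to 1661 and 2298 CPM in the Cx-like and 2038 and 2101 CPM in the SG-like cells. By the S list the IRS-, GL- and LPC-like cells were the 3 highest classes in both libraries. The gate itself leaves many cells near its limits, such as 168 of 664 and 191 of 707 GL-like cells, and 2099 and 1933 of the ungated cells.

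**Figure D1:**
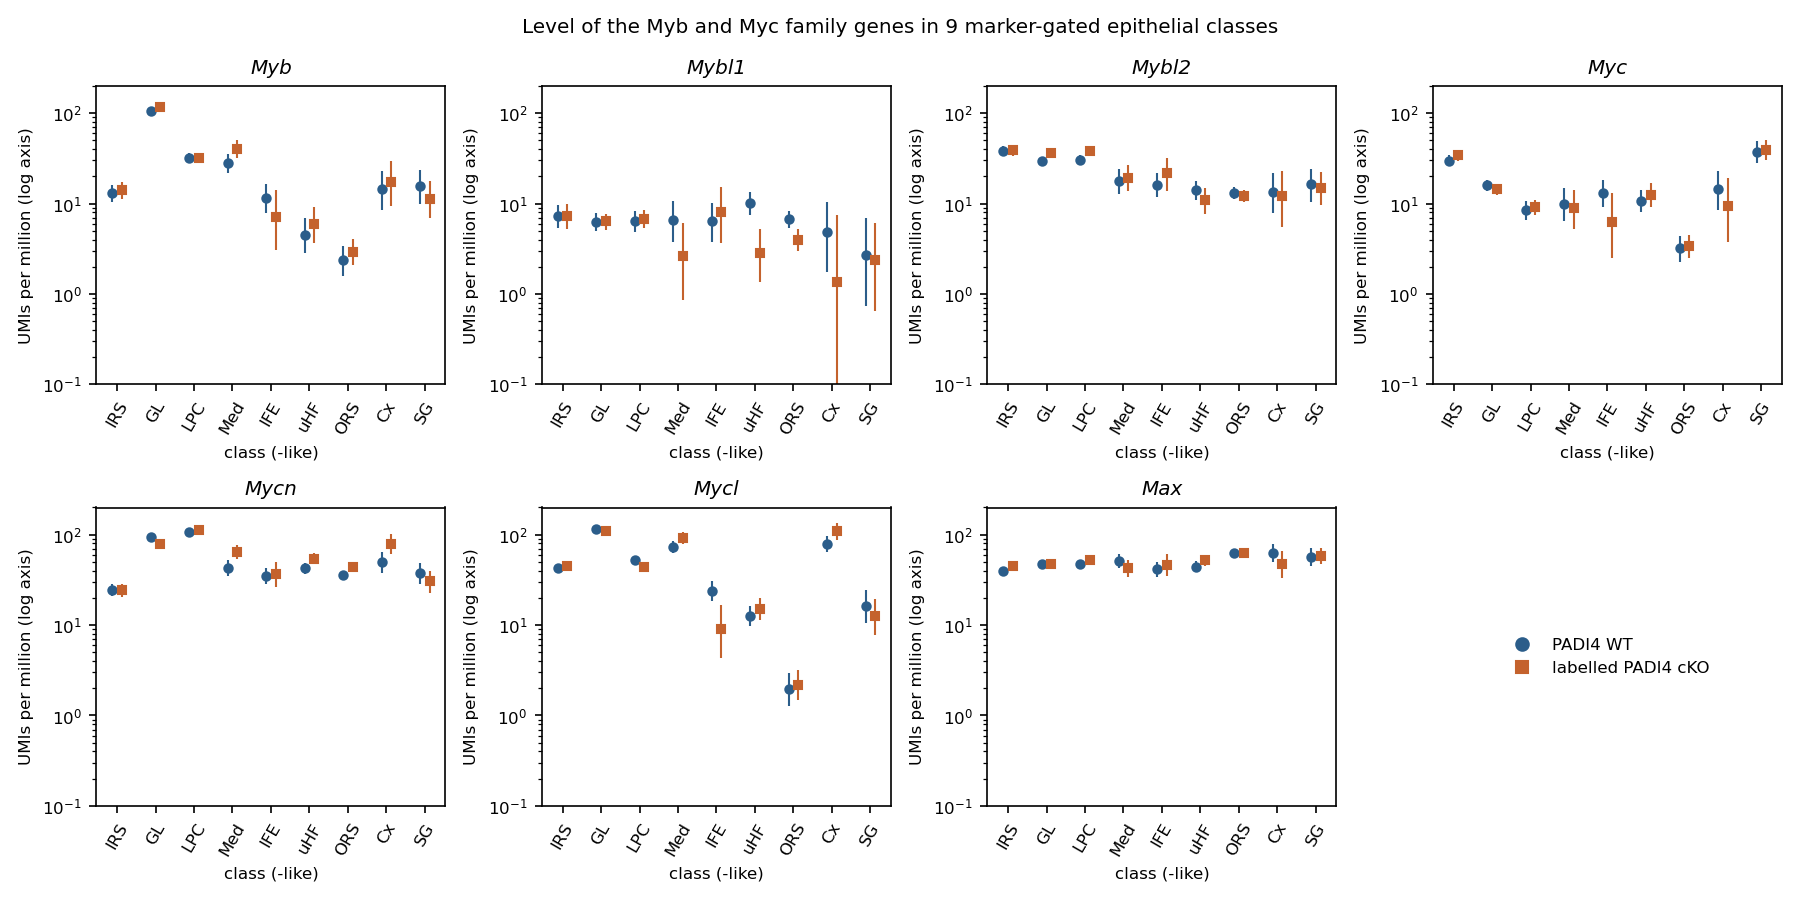
Level of each member (CPM, log axis) in the 9 marker-gated classes, with 1 point per library and bars for the 95% counting interval. Myb and Mycl span the widest range, from over 100 CPM in the GL-like cells to about 2 CPM in the ORS-like cells, while Max stays between 39.2 and 63.2 CPM.

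Myb was concentrated in the GL-like cells, the Shh- and Dlx-expressing progenitors at the base of the follicle. Their marker list, which also holds Gfra3 and Eda, was chosen with earlier results of these data known. How far the gate itself favors cells with Myb was not tested. Its level there was 106.5 CPM (101 to 112) in PADI4 WT and 117 CPM (111 to 122) in the library labelled PADI4 cKO. In order of the mean over the libraries, the Med-like cells followed at 28.1 and 40.5 CPM, the LPC-like at 32.2 CPM in each library, the Cx-like at 14.4 and 17.5 CPM, the IRS-like at 13.0 and 14.1 CPM and the SG-like at 15.6 and 11.4 CPM. In the upper follicle and epidermis the levels were 11.7 and 7.19 CPM (IFE-like) and 4.53 and 5.99 CPM (uHF-like), and the ORS-like cells had 2.39 and 2.95 CPM. The GL-like cells thus exceeded the ORS-like cells 44.6-fold (30.9 to 66.9) and 39.6-fold (28.9 to 56.0), and the values of the 2 libraries in each of these classes lay far from those of the other class. Of the neighbors in this order, only GL-like and Med-like, LPC-like and Cx-like, and uHF-like and ORS-like cells were apart beyond counting error in both libraries. Free RNA could account for up to 2.34 and 2.22 CPM, and at that upper limit the ORS-like level could not be told from background. The limit was set over all epithelial cells. It is too high for the ORS-like cells, where Mycl had 1.98 and 2.19 CPM, below its own limit of 4.58 and 3.96 CPM. How much of the Myb there was free RNA was not measured, so the size of these folds is uncertain. Myb (chr10:21124935-21160984, minus strand) shares 559 exonic bases with Gm26577 on the opposite strand.

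Mybl2 had a narrower range and a different order. It was highest in the IRS-like cells, the keratin-forming sheath around the hair shaft, at 38.0 CPM (33.5 to 43.0) and 39.0 CPM (34.0 to 44.5). The LPC-like cells had 30.3 and 38.4 CPM and the GL-like cells 29.5 and 36.1 CPM, and neighbors among these 3 classes were not apart beyond counting error in both libraries. All other classes lay lower, between 10.8 and 21.6 CPM, with the ORS-like cells at 13.2 and 12.1 CPM and the SG-like cells at 16.3 and 15.0 CPM. From its highest to its lowest class Mybl2 changed 2.89-fold (2.36 to 3.54) in PADI4 WT and 3.60-fold (2.54 to 5.22) in the library labelled PADI4 cKO. The only neighbors that were apart in both libraries were the GL-like and IFE-like cells.

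Mybl1 was low everywhere. In PADI4 WT its levels lay between 2.72 CPM (SG-like, 4 UMIs) and 10.1 CPM (uHF-like, 49 UMIs), and in the library labelled PADI4 cKO between 1.35 CPM (Cx-like, 1 UMI) and 8.09 CPM (IFE-like, 9 UMIs). The IRS-, GL- and LPC-like cells held 6.26 to 7.30 CPM in both libraries. No neighboring classes in its order were apart in both libraries, so at this depth no ranking of classes by Mybl1 could be made.

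The Myc genes each had a different leading class. Myc was highest in the SG-like cells, the lipid-forming gland cells, at 37.4 CPM (28.2 to 48.7) and 39.5 CPM (30.6 to 50.3). The IRS-like cells followed at 29.7 and 34.2 CPM, and the GL-like cells at 16.0 and 14.4 CPM. The remaining classes lay between 6.29 and 14.4 CPM, except for the ORS-like cells with 3.21 and 3.40 CPM. The SG-like cells were 11.6-fold above the ORS-like cells in each library, with intervals of 7.59 to 18.03 and 7.83 to 17.4. SG- and IRS-like cells overlapped, whereas IRS-like and GL-like cells, and LPC-like and ORS-like cells, were apart in both libraries. Up to 1.13 and 0.691 CPM could be free RNA.

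Mycn led in the progenitors of the lower follicle. The LPC-like cells, which express Lgr5 and Ptch1, had 106 CPM (99.1 to 113) and 112 CPM (106 to 118), and the GL-like cells had 93.2 and 79.4 CPM. The Cx-like cells had 49.6 and 79.5 CPM, the Med-like 42.9 and 65.2 CPM and the uHF-like 42.8 and 54.5 CPM. The ORS-like cells had 35.8 and 44.2 CPM, the IFE-like 35.4 and 36.9 CPM, the SG-like 37.4 and 30.5 CPM and the IRS-like 24.6 and 24.4 CPM. The lowest class in both libraries was thus the IRS-like, where Mki67 was about as high as in the GL-like cells, and the LPC-like cells exceeded it 4.32-fold (3.65 to 5.13) and 4.57-fold (3.83 to 5.50). LPC-like and GL-like cells were apart in both libraries, as were uHF-like and ORS-like cells.

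Mycl resembled Myb at both ends of its order but extended further into the shaft lineages. It had 115 CPM (109 to 121) and 109.7 CPM (104 to 115) in the GL-like cells. The Cx-like cells had 78.4 and 109.1 CPM and the Med-like 73.9 and 91.4 CPM, ahead of the LPC-like with 52.1 and 44.2 CPM and the IRS-like with 42.5 and 45.2 CPM. The IFE-like cells had 24.1 and 8.99 CPM, the SG-like 16.3 and 12.6 CPM, the uHF-like 12.8 and 15.1 CPM and the ORS-like 1.98 and 2.19 CPM. The GL-like cells exceeded the ORS-like cells 58.3-fold (39.0 to 91.3) and 50.1-fold (34.7 to 75.0), and free RNA could account for up to 4.58 and 3.96 CPM, more than the whole ORS-like level. Med-like and LPC-like, IRS-like and IFE-like, and uHF-like and ORS-like cells were apart in both libraries.

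Max, the shared partner, was nearly even. Its levels lay between 39.2 CPM (IRS-like) and 63.2 CPM (Cx-like) in PADI4 WT, 1.61-fold (1.24 to 2.08), and between 42.6 CPM (Med-like) and 62.7 CPM (ORS-like) in the library labelled PADI4 cKO, 1.47-fold (1.17 to 1.88). No neighbors in its order were apart in both libraries. The ORS-like cells, where Myc and Mycl were lowest, had 62.0 CPM (57.7 to 66.6) and 62.7 CPM (58.5 to 67.2) of Max.

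Against the other gated cells, members were over 2-fold higher in both libraries in 5 class and gene pairs and over 2-fold lower in 14, of 12000 genes measured per class. In the GL-like cells these were Myb, at log2 ratios of 2.95 and 2.88, and Mycl, at 1.97 and 1.93. In that class 1.24% of all genes were over 2-fold higher in both libraries. In the LPC-like cells it was Mycn, at 1.03 and 1.00 (background 2.01%), a pair that fell below the limit under a minimum of 4000 UMIs per cell, with Leiden clusters or with 1 more marker in the gate. Myc was the only such gene in the IRS-like cells, at 1.46 and 1.71 (3.52%), and in the SG-like cells, at 1.59 and 1.72 (4.58%). No member was over 2-fold higher in the Med-, IFE-, uHF-, ORS- or Cx-like cells, where 2.25%, 1.48%, 3.73%, 8.62% and 3.61% of all genes were.

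The lower pairs gathered in the ORS-like cells, the outer layer with Sox9 and Krt15, where Myb (−4.25 and −4.26), Mybl2 (−1.01 and −1.42), Myc (−2.32 and −2.21) and Mycl (−5.00 and −4.91) passed the limit against 5.7% of all genes. With the UMIs expected from empty droplets subtracted at the free RNA limit, the mean over the libraries in the ORS-like cells was −7.55 for Myb and −10.6 for Mycl. Subtracting the same background from all classes can only lower the ratio of the lowest class, so these values do not test the difference. For Mycl the free RNA limit (4.58 and 3.96 CPM) exceeds the whole ORS-like level (1.98 and 2.19 CPM), so −10.6 is not a measured ratio. The size of both ratios depends on that limit. Myb and Mycl were also over 2-fold lower in the uHF-like cells (−3.08 and −2.93, −2.06 and −1.82, background 5.06%) and in the IFE-like cells (−1.66 and −2.55, −1.08 and −2.47, background 2.27%). In the IRS-like cells Myb (−1.59 and −1.74) and Mycn (−1.42 and −1.56) passed it, with 14.6% of all genes. In the SG-like cells Myb (−1.20 and −1.95), Mybl1 (−1.17 and −1.05) and Mycl (−1.61 and −2.03) did so beside 10.8%, and in the Cx-like cells Myb (−1.30 and −1.29) beside 11.8%. Doublet calls made up 6.17% and 8.25% of the SG-like cells, and without them the mean ratios there were −2.72 for Myb and −1.80 for Mybl1, while Leiden clusters gave −3.04 for Myb and −2.57 for Mycl. Myb moved as far in the IFE-like cells without doublets (−3.02) and in the uHF-like cells with empty-droplet UMIs subtracted (−3.76). In the GL-, LPC- and Med-like cells 0 members were over 2-fold lower, against 11.6%, 4.88% and 8.46% of all genes. The Mybl1 value of the SG-like cells rests on 4 UMIs in each library and was lost under the same 3 alternatives as Mycn in the LPC-like cells, and with Leiden clusters Myb in the Cx-like and Mybl2 in the ORS-like cells were lost as well.

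**Figure D2:**
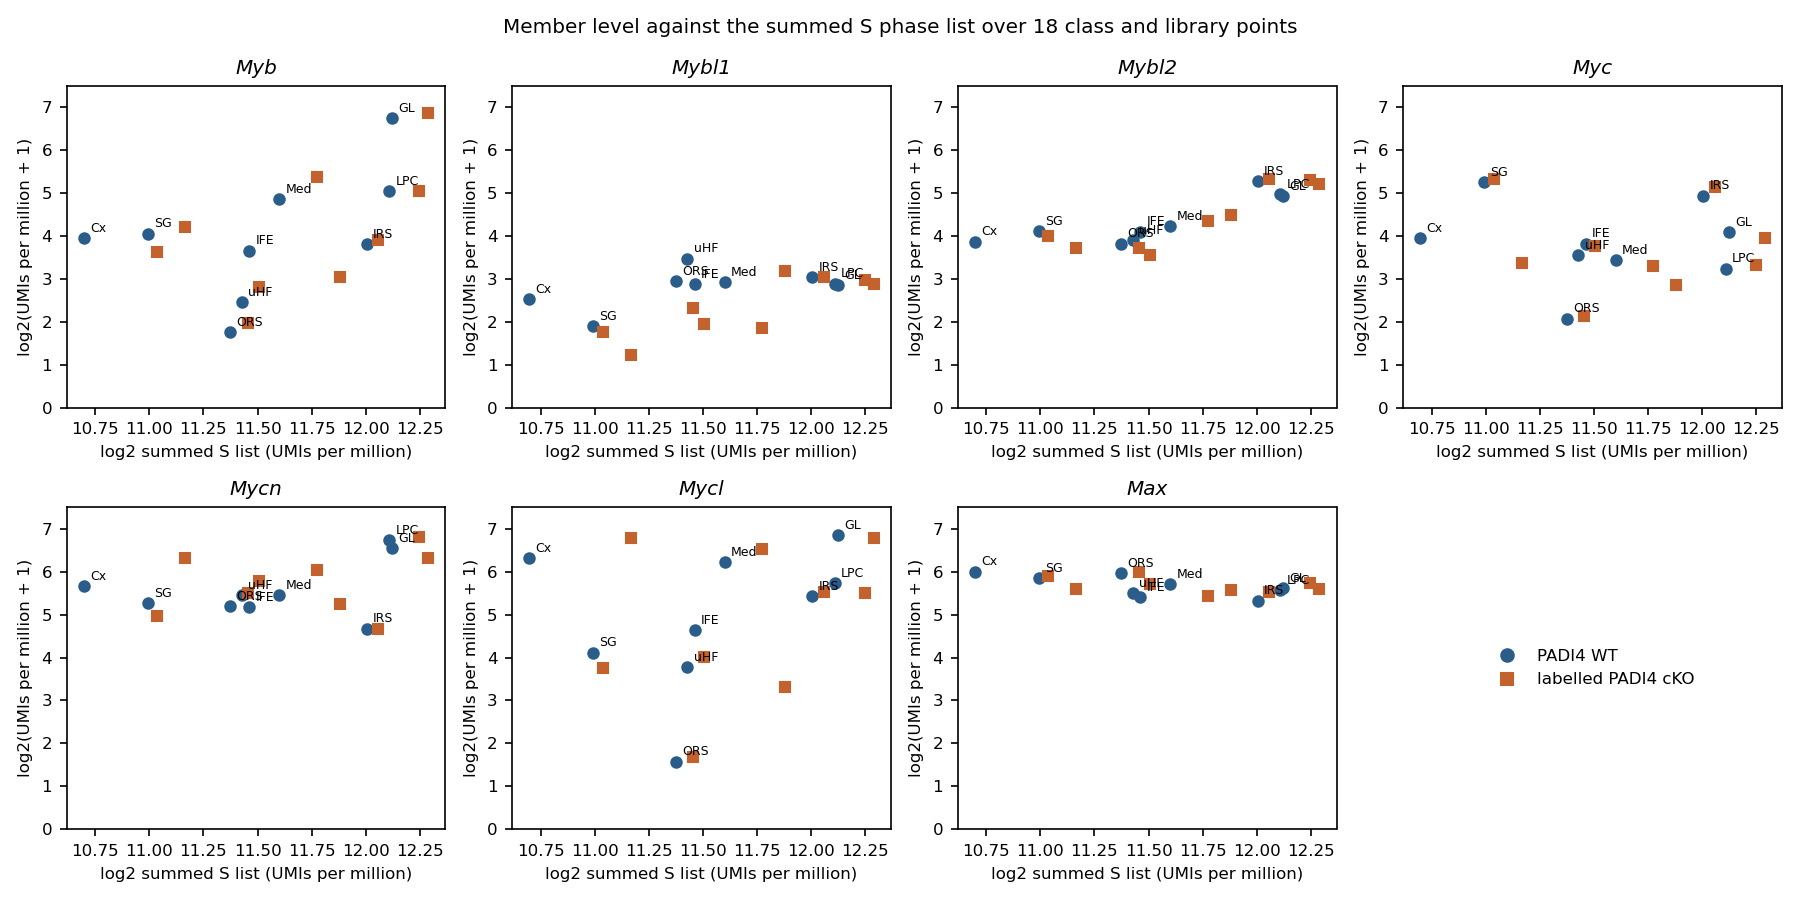
Level of each member against the summed level of the S phase list over the 18 class and library points, both on log2 scales. At full depth Mybl2 follows the S list most closely (r = 0.83). Myc does not follow it (r = −0.08), and Max runs the other way (r = −0.56). In cells thinned to 2000 UMIs, where few UMIs remain per point, Mybl2 falls below Myb and Max has r = 0.13.

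To relate the members to proliferation, log2(CPM + 1) was set against the summed S and G2M lists over 18 points, 9 classes in each of 2 libraries. These points share their libraries and differ in depth, and the correlations are descriptions without a test. Of the members, Mybl2 had the highest correlations at full depth, with Pearson's r of 0.83 for the S list and 0.80 for the G2M list (Spearman's rho 0.78 and 0.81), and 0.83 and 0.88 for the S list within each library. It kept 0.84 and 0.87 without the 2 farthest points. Of the 10180 genes compared, 3.17% reached 0.8 with the S list, and of the 6 members among them Mybl2 did. With the G2M list 3.88% reached it and 0 members did, Mybl2 lying just below. When each cell was thinned to 2000 UMIs, the r of Mybl2 was 0.63 and 0.46, with a median of 6.5 Mybl2 UMIs per point in place of 55.5. The order of the members then turned, since Myb had 0.68 with each list (4.0 UMIs per point), and Mycl (0.53) and Mybl1 (0.50) also lay above Mybl2 with the G2M list.

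At full depth the other Myb genes had lower values. Myb had r = 0.51 with the S list and 0.60 with the G2M list, which became 0.30 and 0.46 without the GL-like cells and 0.69 and 0.80 with Leiden clusters, where it reached the limit with the G2M list. Mybl1 had 0.52 and 0.56, with 0.49 in PADI4 WT and 0.83 in the library labelled PADI4 cKO for the S list, and Leiden clusters gave 0.77 and 0.75. Among the Myc genes, Mycl had 0.30 and 0.58, which ran from 0.14 and 0.48 without the GL-like cells to 0.63 and 0.74 without the Cx-like cells, and Mycn had 0.35 and 0.22. For Mycn the IRS-like cells, proliferating and low in Mycn, mattered most, since r was 0.65 and 0.62 without them. At the other end its r was 0.12 (S) without the LPC-like and 0.04 (G2M) without the GL-like cells. Myc had −0.08 and 0.04, and for it the SG-like cells, with little proliferation and the most Myc, mattered most, since r was 0.28 and 0.60 without them, against −0.29 and −0.24 without the IRS-like cells. Max had −0.56 and −0.71, but 0.13 and −0.06 in the thinned cells. There a median of 25.5 UMIs per point remained in place of 199, for a gene that differed only 1.61-fold and 1.47-fold between its highest and lowest classes. Whether equal depth or the loss of UMIs changed its r was not tested. Of the pairs of members, Myb and Mycl were the most alike, with r = 0.85 and rho = 0.90, ahead of Myb and Mybl2 (0.62) and Myb and Mycn (0.60), while Myc and Mycn had −0.35.

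Among 10277 genes compared over the same points, those most like Mybl2 were Ssrp1 (r = 0.96), which encodes a histone chaperone used in replication and transcription, Nup107 (0.94), a nuclear pore gene, and 1810037I17Rik (0.93). Most like Myb were Ivns1abp, Npm1, a nucleolar protein gene, and Robo1, a Slit receptor gene, each at 0.93. Genes most like Mycl included Tnfrsf19, a Wnt-responsive receptor gene, and the metallothionein gene Mt2, each at 0.95. Mycn was closest to the adhesion gene Cadm1 (0.88), Ralgps2 (0.85) and Khdrbs1 (0.85), and Myc to Slc25a3, the mitochondrial phosphate carrier gene, Grpel1 and Eif4g1, each at 0.91. Mybl1 and Max had less similar genes, led by Zfp101 (0.83), Macc1 (0.82) and the spindle gene Ckap2 (0.81), and by Klhl2 (0.83), Dnajb9 (0.81) and Rnf144a (0.80).

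**Figure D3:**
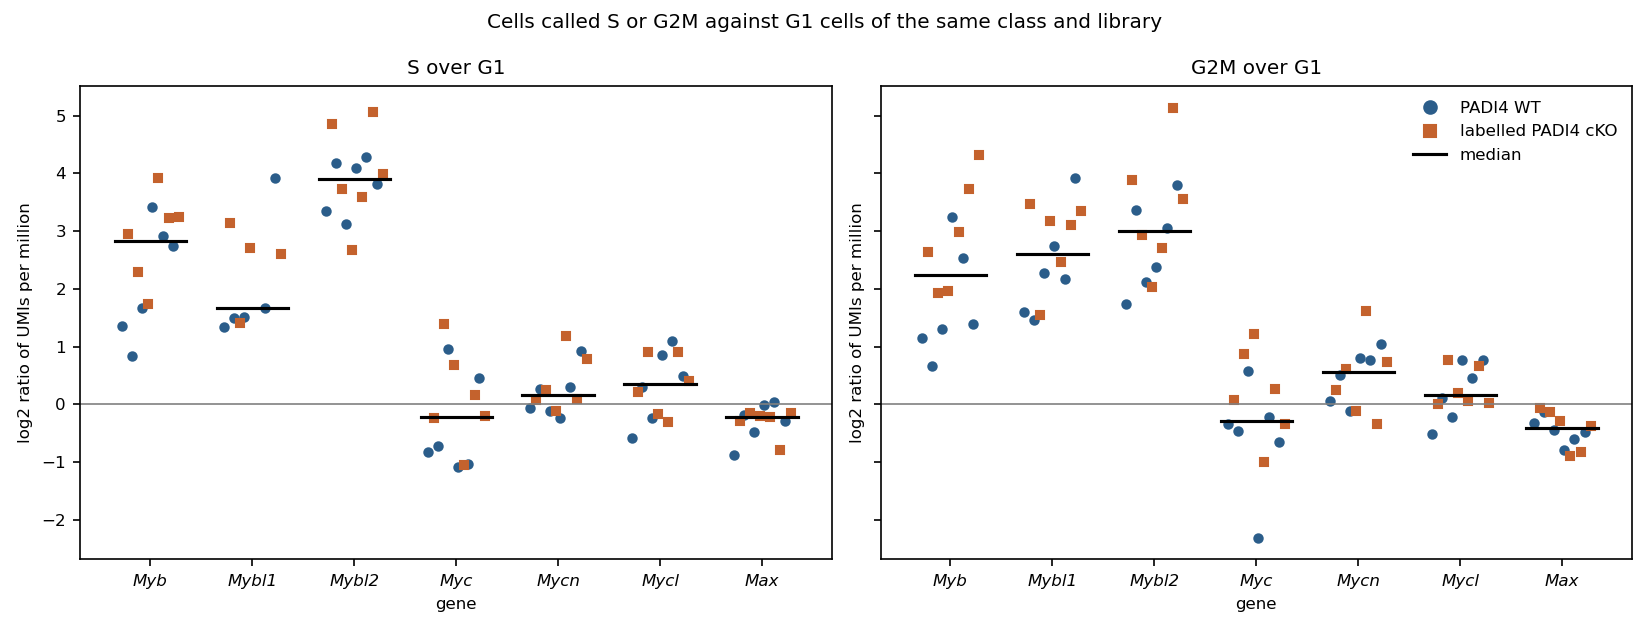
Log2 ratio of the level in S and in G2M cells over G1 cells for each member, with 1 point per class and library with more than 3 UMIs in at least 1 phase and a line at the median. All 12 points of Mybl2 and of Myb lie above 0 in both phases, and those of Max between −0.89 and 0.04.

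Within classes, cells were called G1, S or G2M from the same published gene lists, and 6 classes had at least 20 cells of each phase in both libraries, which gives 12 pairs of class and library. All 3 Myb genes were higher in cycling cells. Mybl2 had a median log2 ratio of 3.90 in S over G1 cells (2.68 to 5.06 over the pairs) and 2.995 in G2M over G1 cells (1.74 to 5.14), against −0.09 for the median of all genes in both comparisons, and its interval lay above 0 in 12 of 12 pairs both times. In the IRS-like cells of PADI4 WT it went from 7.89 CPM in G1 to 85.3 CPM in S and 28.2 CPM in G2M. In the GL-like cells of that library it went from 1.58 to 42.9 and 24.5 CPM. The ORS-like cells, with little Mybl2 as a class, had 1.91, 27.7 and 27.3 CPM in PADI4 WT and 1.77, 29.1 and 21.2 CPM in the library labelled PADI4 cKO. In cycling cells the ORS-like level of Mybl2 thus came close to that of the GL-like cells in G2M, and the G1 levels were low in both classes, resting on 1 to 14 UMIs over all pairs.

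Myb was also higher in S and G2M cells of the same class, with medians of 2.83 (0.84 to 3.92) and 2.24 (0.66 to 4.32) and intervals above 0 in 12 and 10 of 12 pairs. Its smallest S ratio was found in the GL-like cells of PADI4 WT, with 64.9 CPM in G1, 117.7 CPM in S and 103.8 CPM in G2M cells. The same class of the other library had 28.2, 141.9 and 109.5 CPM, with a larger S ratio of 2.29 (1.66 to 3.10). The Med-like cells of PADI4 WT went from 3.62 to 43.9 and 39.4 CPM. With phases called in thinned cells the S median of Myb was 1.84, and its G2M median was 3.22 when cells with Mki67 and Top2a were set against cells lacking both. Mybl1 had a median of 1.67 in S cells over the 9 pairs with more than 3 UMIs (1.33 to 3.92, interval above 0 in 4) and 2.61 in G2M cells over 12 pairs (1.46 to 3.92, interval above 0 in 8). In the ORS-like cells its levels were 0.882, 14.2 and 14.2 CPM in PADI4 WT and 1.14, 7.22 and 11.8 CPM in the library labelled PADI4 cKO. These ratios rest on 0 to 11 UMIs of Mybl1 in the G1 cells.

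The Myc genes showed smaller and less even differences between phases. Mycn had medians of 0.17 in S and 0.56 in G2M, with intervals above 0 in 3 and 7 of 12 pairs. In the ORS-like cells it went from 25.1 CPM in G1 to 47.5 and 51.6 CPM in PADI4 WT, and from 34.3 to 59.4 and 56.7 CPM in the library labelled PADI4 cKO. In the LPC-like cells of PADI4 WT, where it was most abundant, it stood at 113, 105 and 105 CPM. The G2M median of Mycn was −0.07 when cells with Mki67 and Top2a were compared with cells lacking both, and 0.09 when phases were called in thinned cells. Mycl had medians of 0.36 and 0.16 and Myc of −0.22 and −0.28, and each of these lay above 0 in some pairs and below it in others. Max had −0.21 and −0.41, below 0 in 12 of 12 pairs in G2M, with an interval below 0 in 5.

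Over all genes, 10.6% had a median ratio above 0.5 in S over G1 cells and 10.6% in G2M over G1 cells. Of the 7 members, Myb, Mybl1 and Mybl2 passed it in S, and the same genes with Mycn in G2M. Below −0.5 lay 14.4% and 18.4% of all genes and 0 members. How often the intervals of all genes lay above or below 0 was not counted. Other values moved with the phases. The IRS-like cells in G1 had 18087 and 12494 CPM of their own marker list against 3670 and 3551 CPM in S, the ORS-like 4445 and 4394 CPM against 2948 and 2970 CPM, and the median UMIs per cell went from 8786 in G1 to 17535 in G2M in the ORS-like cells of PADI4 WT. The part of differentiation and depth in the ratios between phases was not tested.

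**Figure D4:**
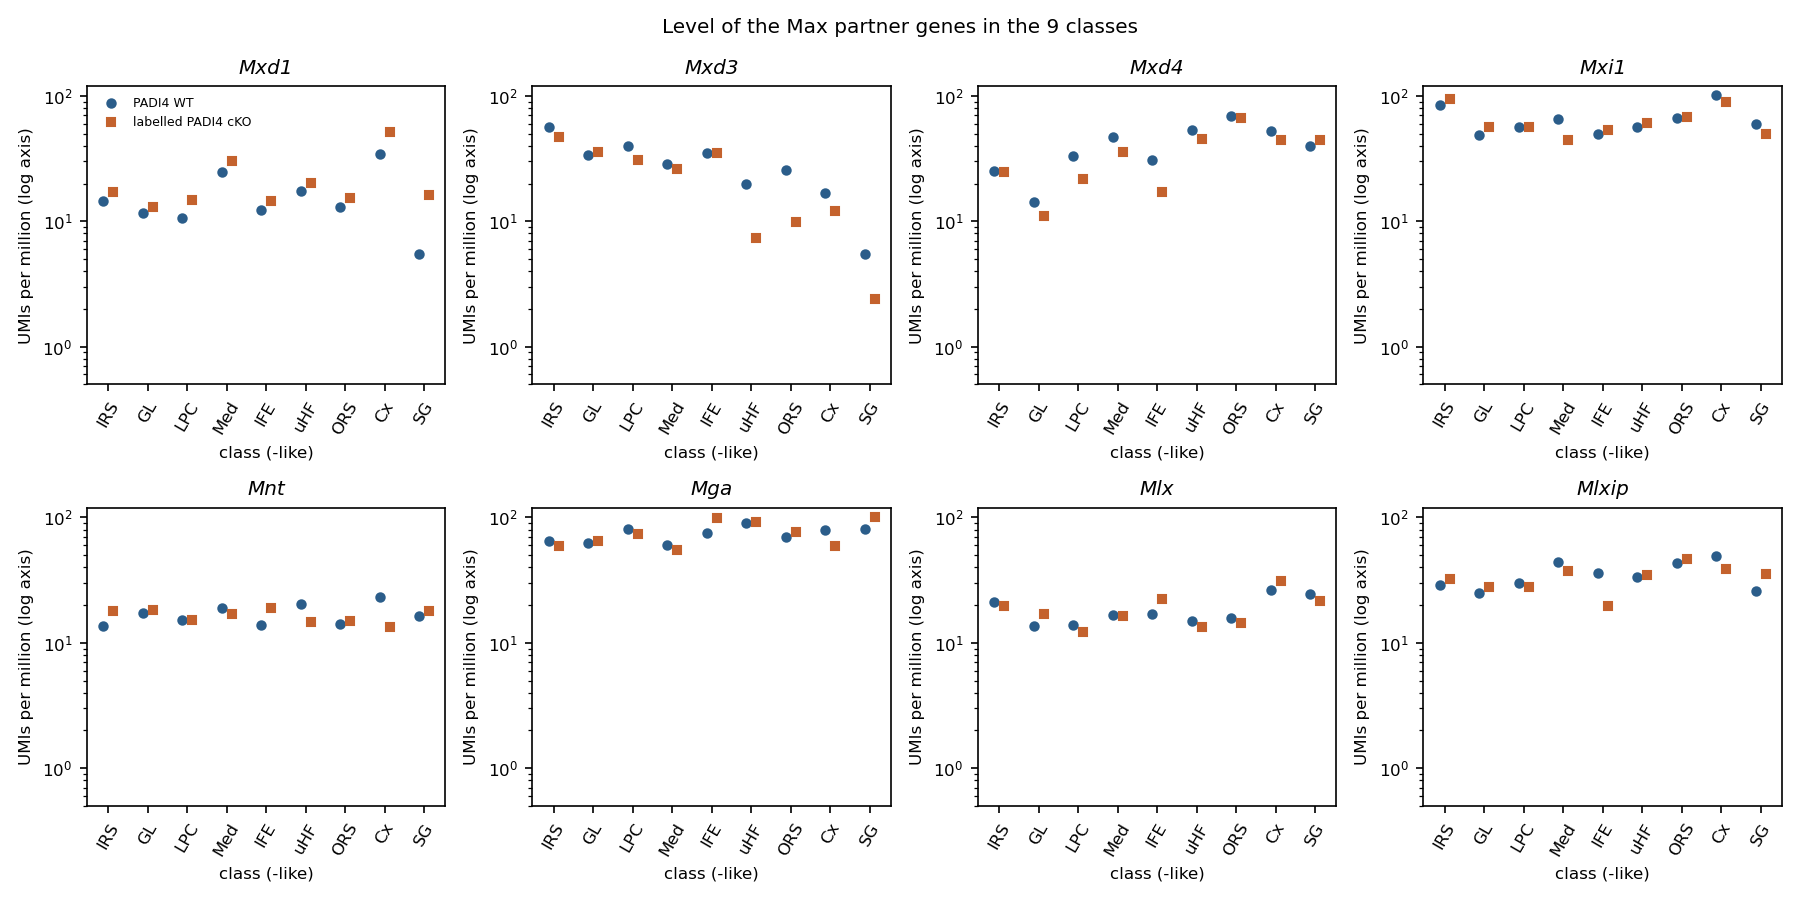
Level of the 8 Max partner genes (CPM, log axis) in the 9 classes, with 1 point per library. Mxd3 is highest in the IRS-like cells and Mxd4 in the ORS-like cells, while Mnt lies within a narrow band.

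The partners of Max differed among themselves. Mxd3, whose product is a repressor known from S phase, had a mean over the libraries of 51.8 CPM in the IRS-like and 3.92 CPM in the SG-like cells, r = 0.91 with the G2M list, and median log2 ratios of 3.49 in S and 6.67 in G2M over G1 cells. Mxd4, a repressor gene of resting and differentiating cells, showed the reverse, with 68.0 CPM in the ORS-like and 12.6 CPM in the GL-like cells, r = −0.75 with the S list and ratios of −1.91 and −2.11. Mxd1, also known from differentiating cells, was highest in the Cx-like cells at 42.8 CPM, with ratios of −0.58 and −0.50, and Mxi1 had −0.54 and −0.50. Mnt lay between 14.6 and 18.3 CPM over the classes. Of the 8 genes, 1 passed 0.5 upward and 3 downward in each phase, and the list medians were −0.29 in S and −0.25 in G2M. Over all genes 10.6% passed it upward in each phase, and 14.4% (S) and 18.4% (G2M) downward.

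Of the 15 MuvB, E2f and pocket protein genes, 9 passed 0.5 upward and 0 downward in S as well as in G2M cells, with list medians of 0.60 and 0.53. The share of all genes that passed it upward was 10.6% in each phase. Foxm1, a mitotic activator gene that acts with B-Myb, had 2.44 and 4.199. E2f1 had 2.66 and 0.53 and E2f2 2.56 and 1.97, and E2f2 differed most between classes, with 103.2 CPM in the IRS-like and 7.16 CPM in the ORS-like cells. Rbl1, the gene of the pocket protein p107, had 1.48 and 1.33, and Lin54, the DNA-binding subunit of MuvB, 1.20 and 1.39. Over the classes, 4 of the 15 genes reached r = 0.8 with each list, beside 3.17% (S) and 3.88% (G2M) of all genes.

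Of 16 growth genes known to respond to Myc proteins, 13 passed 0.5 upward in S and 4 in G2M cells, beside 10.6% of all genes in each phase. The list medians were 0.53 and 0.27, and 0 passed downward. This list, like the others, was chosen with earlier results of these data known. The GL-like cells held the highest mean level of 8 of them, among them Npm1 (2084 CPM), and the SG-like cells that of 4. Odc1, the first enzyme of polyamine synthesis, differed most, with 900.7 CPM in the Med-like and 20.0 CPM in the ORS-like cells. The LPC-like cells, which led in Mycn, were highest for 1 of the 16, the Cad gene of pyrimidine synthesis.

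**Figure D5:**
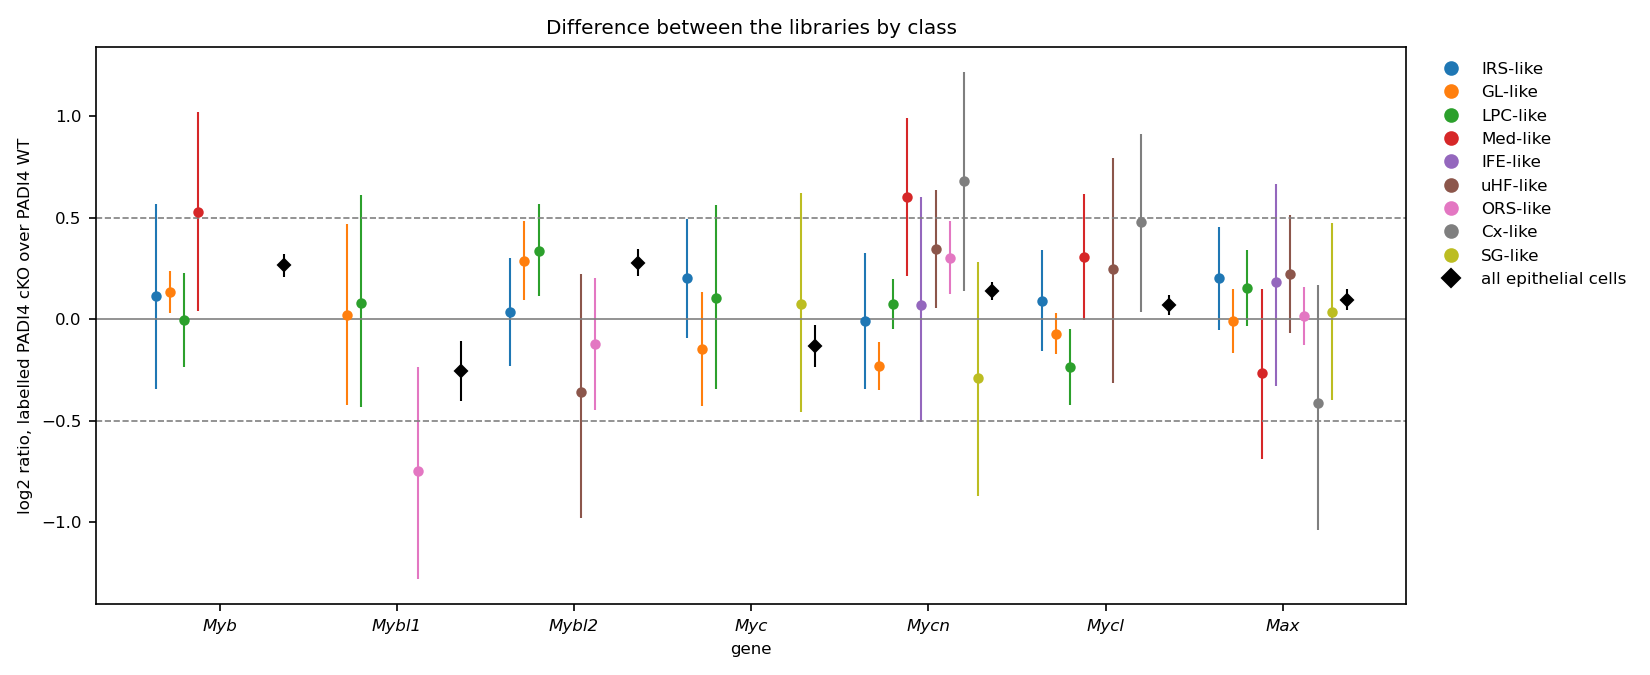
Log2 ratio of each member, library labelled PADI4 cKO over PADI4 WT, in each class with at least 100 UMIs in both libraries together, with 95% counting intervals, dashed lines at ±0.5 and a black diamond for all epithelial cells. Most pairs lie within ±0.5, and Mycn in Med- and Cx-like cells, Myb in Med-like cells and Mybl1 in ORS-like cells lie outside.

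Between the libraries, the members differed little. Over all epithelial cells the log2 ratio, library labelled PADI4 cKO over PADI4 WT, was 0.27 (0.21 to 0.32) for Myb and 0.28 (0.21 to 0.35) for Mybl2. It was 0.14 for Mycn, 0.10 for Max and 0.07 for Mycl, and it was −0.26 (−0.40 to −0.11) for Mybl1 and −0.13 for Myc. Of the 7 genes 0 passed 0.5, a limit taken from the study's methods, which 1.56% of all genes passed upward and 3.57% downward. These values mix classes of unequal size, and genotype, sex and animal cannot be told apart.

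Within classes, 40 pairs of member and class had at least 100 UMIs. Of their intervals, which cover counting error alone, 12 excluded 0. The share of all genes with such intervals was not counted, so whether this number is particular to the members is not known. Past 0.5 upward lay Mycn in the Med-like cells, from 42.9 to 65.2 CPM at 0.60 (0.21 to 0.99), and Myb in the same class at 0.53 (0.04 to 1.02), where 2.61% of all genes did so. Mycn also passed it in the Cx-like cells at 0.68 (0.14 to 1.22, background 3.96%). Doublet calls made up 9.92% and 7.95% of the Med-like cells, and without them Mycn there was 0.46 and Myb 0.63. The Med-like cells also had fewer G1 calls in the library labelled PADI4 cKO, 33.0% against 45.0%. Within their phases Myb was 0.30 (−3.38 to 3.32) in G1, 0.81 (0.0040 to 1.67) in S and 0.05 (−0.61 to 0.70) in G2M cells, and Mycn −0.24 (−1.35 to 0.73), 1.17 (0.21 to 2.27) and 0.58 (0.09 to 1.07). Mycn was also higher in the library labelled PADI4 cKO at smaller ratios in the uHF-like (0.35) and ORS-like cells (0.30), but lower in the GL-like cells (−0.23, −0.35 to −0.11). Mybl2 was higher in both progenitor classes, at 0.29 (0.10 to 0.48) in the GL-like and 0.34 (0.11 to 0.57) in the LPC-like cells. Within the S cells of these classes it was 0.27 (−0.0024 to 0.56) and 0.11 (−0.18 to 0.40), and within the G2M cells 0.29 (0.02 to 0.56) and 0.48 (0.09 to 0.87). In the IRS-like cells it stood at 0.04 (−0.23 to 0.30).

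Downward, Mybl1 in the ORS-like cells passed the limit, from 6.75 to 4.01 CPM (82 and 53 UMIs) at −0.75 (−1.28 to −0.24), where 3.48% of all genes did so. The same cells had less of the G2M list in the library labelled PADI4 cKO, 3241 against 5362 CPM, and fewer G2M calls, 5.57% against 14.7%. Within phases the Mybl1 ratio was −0.97 (−1.72 to −0.26) in S, −0.23 (−1.27 to 0.66) in G2M and 0.33 (−1.28 to 2.14) in G1 cells. Among cells with Xist and no Y-linked UMIs it was −0.99 (−1.68 to −0.22), with 25 and 53 UMIs. In the uHF-like cells Mybl1 went from 10.1 to 2.85 CPM, at −1.77 (−2.97 to −0.82), but with 49 and 10 UMIs it was below the minimum.

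In all other classes and directions 0 members with at least 100 UMIs passed the limit. That minimum was met by 7 members in the GL- and LPC-like and 6 in the IRS-like cells. It was met by 4 in the Med-, uHF- and ORS-like, 3 in the Cx- and SG-like and 2 in the IFE-like cells. Over all genes, the shares that passed it upward there were 1.82% (IRS-like), 1.11% (GL-like), 2.33% (LPC-like), 7.16% (IFE-like), 3.63% (uHF-like), 1.81% (ORS-like) and 5.06% (SG-like). Downward they were 1.45% (IRS-like), 1.51% (GL-like), 2.29% (LPC-like), 4.82% (Med-like), 7.09% (IFE-like), 4.3% (uHF-like), 4.48% (Cx-like) and 3.09% (SG-like). With enough UMIs, members thus passed the limit in the small Med- and Cx-like classes and in the ORS-like class alone. Further pairs below the minimum lay past it, such as Mycl in the IFE-like cells at −1.36 (−2.55 to −0.45), with 64 and 10 UMIs.

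In the cells with Xist and no Y-linked UMIs, 2123 and 7305 in number, the ratios over all cells were 0.07 (−0.02 to 0.16) for Myb and 0.15 (0.05 to 0.26) for Mybl2, in place of 0.27 and 0.28. Mybl2 in the GL-like cells was 0.46 (0.15 to 0.80), and Mycn there −0.29 (−0.46 to −0.11). For other pairs the interval came to include 0, with Mybl2 in the LPC-like cells at −0.02 (−0.38 to 0.38), Mycn in the ORS-like cells 0.02 (−0.25 to 0.30) and Mycn in the uHF-like cells 0.17 (−0.32 to 0.73). The Med- and Cx-like cells, which held the upward pairs, had too few such PADI4 WT cells for a comparison. Of the genes in the 4 pathway lists, 0 passed 0.5 between the libraries in either direction over all epithelial cells, and the list medians lay between 0.01 and 0.05. Of all genes, 1.56% passed it upward and 3.57% downward there.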

How the data were processed

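Raw UMI counts per gene and droplet were deposited by the authors, made with Cell Ranger 7.1.0 from 3′ libraries on the mm10 build according to the submitters' processing notes. The tables held 143938990 and 143945294 UMIs, empty droplets included, and whether intronic reads were counted is not given in the sources used here. CellBender and Harmony, which the study used, were not run. The study's cell limits were applied, which were 2000 and 60000 UMIs, 1000 and 8000 genes, 20% for mitochondrial and 1% for hemoglobin UMIs, and percentiles 5 and 99 for the ribosomal share. Cells were scored on marker lists (mean capped z score of log-transformed counts) and gated at a score of 0.5, a margin of 0.3 and 3 detected markers. Fibroblast- and melanocyte-like cells were left out. Classes needed 40 cells per library. Scrublet called 296 doublets in each library (3.67% and 4.00%), at the threshold of one library because the automatic one called 1 cell in PADI4 WT, and they were kept. Phases were scored with Scanpy, and UMIs were thinned to 2000 per cell where stated. Log2 ratios added 0.5 UMI. The free RNA limit came from collagen and hemoglobin genes in droplets under 100 UMIs.

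Differences past 0.5 (log2) were counted for genes with at least 100 UMIs, and 2-fold differences between classes where both libraries passed. The named genes are the 7 members, genes that check the labels, pathway genes with the highest and lowest values of a list, and the 3 genes most like each member among those at 10 CPM or more. Further pathway genes were named after their values had been seen. The results of some genes chosen by these rules are not reported here. The members and gene lists were chosen with earlier results of these data known, and the gate limits, cell minima, doublet threshold and motifs after seeing the data. The ratios were tested on simulated data. Alternatives were other UMI limits, doublets left out, Leiden clusters, other gates, thinned cells, other phase calls, other minima, cells with Xist alone, subtraction of free RNA and each class left out. Analyses used Python 3.11.15, NumPy 2.4.6, SciPy 1.17.1, pandas 2.3.3, Scanpy 1.11.5, igraph 0.11.9 and Matplotlib 3.10.9. Positions are from GRCm38.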

Additional observations from a re-analysis of the deposited data

How the results depend on the processing

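No paired analysis was possible because each genotype has 1 library. The r of Mybl2 with the G2M list was 0.92 with Leiden clusters and 0.92 with 1 more marker in the gate, and with cells thinned to 2000 UMIs its r was 0.63 (S) and 0.46 (G2M), where few UMIs remain per point, below that of Myb (0.68 with each list), and Max went from −0.56 to 0.13 (S) and from −0.71 to −0.06 (G2M). The median G2M ratio of Mycn turned to −0.0738 when cells with Mki67 and Top2a were set against cells with neither, and the cause was not tested. Between the libraries, 3 pairs were past 0.5 upward and 1 downward. With a minimum of 50 UMIs per gene 3 were downward, Mybl1 in the uHF-like and Mycl in the IFE-like cells being added, with 500 UMIs 0 passed in either direction, and with doublets left out 2 were downward, Max in the Med-like cells (−0.53) being added. Among the cells with Xist alone, none of the main pairs could be compared at the minimum of UMIs, and the pairs past 0.5 were 1 upward, Max in the uHF-like cells (0.64), and Myb in the IRS-like cells (−0.53). By results and settings, the values moved beyond a tolerance in 26 of 142 cases for levels, 53 of 266 for proliferation, 17 of 135 for phases and 33 of 235 for libraries. In 1 further case for phases the sign reversed. The tolerance was the counting interval for library ratios, 0.1 for r, 0.3 for log2 levels and log2 medians, and 1.5-fold for counts. Comparisons within phases, with each class left out and with Mki67 alone were added after seeing the data. Depth limits Mybl1, with under 100 UMIs in each class and library, and the small Cx-, SG- and IFE-like classes.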

Other observations

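Whether members occur in the same cells was read from cells thinned to 2000 UMIs. Among the GL-like cells, a Mycl UMI was found in 19.0% of the cells with a Mycn UMI and 18.8% of those without in PADI4 WT, and in 18.6% and 18.3% in the library labelled PADI4 cKO. With and without a Myb UMI, the shares with Mycl were 22.2% and 18.2% in PADI4 WT, and 26.7% (18.9 to 35.7) and 16.8% (13.8 to 20.0) in the other library. In the ORS-like cells, where the level of Mycl could not be told from free RNA, 0.474% and 0.557% of the thinned cells had a Mycl UMI. Myc was found in 2.59% of the GL-like cells with Mycn and 2.01% of those without in PADI4 WT, and in 2.94% and 1.98% in the library labelled PADI4 cKO. Counting intervals of the shares overlapped in each of these GL-like pairs. In the LPC-like cells of PADI4 WT, those for Mycl and for Mybl2 with and without a Myb UMI did not overlap. The shares were 26.9% (11.6 to 47.8) and 7.08% (4.68 to 10.2) for Mycl. For Mybl2 they were 19.2% (6.55 to 39.4) and 3.81% (2.10 to 6.32), and only 26 cells had a Myb UMI. In the other library the intervals overlapped, at 12.9% and 8.35% for Mycl and 12.9% and 6.92% for Mybl2. The differences themselves were not tested.

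The cells that met no gate, 4627 and 4156 in number, held intermediate levels of all 7 genes. They had 35.02 and 41.6 CPM of Myb, 25.6 and 31.9 CPM of Mybl2 and 11.4 and 9.78 CPM of Myc. Mycn stood at 61.9 and 67.7 CPM and Mycl at 46.4 and 49.5 CPM.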
